A study of Mus musculus with 20 samples.

Results

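Binding of the transcription factor C/EBPbeta was compared between 3T3-L1 cells at 2 hours of adipogenic induction and the same line on day 0, before induction. A peak is a stretch of genome that the authors listed as enriched in a library, and a peak of either C/EBPbeta list counted as shared if it had 1 bp or more in common with one of the other list. The 2 hours list held 19703 peaks and the day 0 list 20471. Merged with each other they gave 26539 sites, of the 77867 merged regions that all 19 peak lists of the series gave together. Of these sites, 6099 were listed at 2 hours only, 13531 at both times and 6909 on day 0 only.

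3T3-L1 is a single mouse preadipocyte line that turns into fat cells under hormonal treatment. At 2 hours the cells had been exposed to insulin, fetal bovine serum, 3-isobutyl-1-methylxanthine, which blocks phosphodiesterases, and dexamethasone, a synthetic glucocorticoid. On day 0 they had been confluent for 2 days in medium with calf serum and had received none of the inducers. Each group was 1 library with no replicate, so no difference between the times was tested and no p-value is given. The series also holds peak lists of open chromatin at day 0, 2 hours, 4 hours, day 1, day 2 and day 6, and of C/EBPbeta at 4 hours and day 2. Lists of C/EBPdelta cover day 0 and 4 hours, those of GR, Stat5a and RXR 4 hours, those of PPARgamma day 2 and day 6, and those of RNA polymerase II day 0 and 4 hours. Peak lists hold no expression values, so neither the cell line nor the antibodies could be checked against marker genes.

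C/EBPbeta is a basic leucine zipper protein that binds DNA as a dimer and is needed early in adipogenesis, upstream of PPARgamma and C/EBPalpha. C/EBPdelta is a close relative with much the same DNA preference. GR is the receptor of dexamethasone, Stat5a a factor activated by Janus kinases, and RXR the dimer partner of PPARgamma and other nuclear receptors. PPARgamma is the main regulator of the fat cell state. Regions cut easily by DNase I, called DNase I hypersensitive sites or DHS, mark open chromatin, and RNA polymerase II lies at promoters and along transcribed genes.

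About 2 in 3 C/EBPbeta peaks of either time were shared with the other. Of the 2 hours peaks, 6100 (31.0%, 95% interval 30.3 to 31.6) were not in the day 0 list and are called gained. The remaining 13603 (69.0%, 68.4 to 69.7) were in the day 0 list too and are called kept. Of the day 0 peaks, 6910 (33.8%, 33.1 to 34.4) were not in the 2 hours list and are called lost, and 13561 (66.2%, 65.6 to 66.9) were kept. Counted by base pairs, 7542426 bp were covered by both lists, which is 46.9% of the 16073154 bp covered by either. Intervals are exact Clopper-Pearson ones. They cover counting over peaks within these libraries, not the spread between cultures, and the read depth behind the lists is unknown. Gained and lost therefore mean listed at one time and not at the other, and a site just under the authors' threshold counts as absent.

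Kept peaks sat at nearly the same place at both times. In 13439 cases 1 peak of 2 hours matched 1 peak of day 0, and the middles of such pairs lay a median of 29 bp apart. In 93.8% of pairs the distance was at most 100 bp. The 2 hours peak of a pair was somewhat narrower, with a median of 573 bp against 608 bp on day 0. It was narrower in 8451 pairs, wider in 4928 and equal in 60, and the mean difference of 2 hours minus day 0 was -37.6 ± 141 bp (SD over pairs). Since the lists carry no height, width is the one property of a single peak that they hold.

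Gained and lost peaks mostly lay far from any peak of the other time. The nearest day 0 peak lay a median of 20276.5 bp from a gained peak, and within 500 bp for 3.85% of them. The nearest 2 hours peak lay a median of 18522 bp from a lost peak, and within 500 bp for 4.12%. Distances over 50000 bp were found for 25.7% of gained and 24.1% of lost peaks. The median width was 511 bp for gained, 573 bp for kept and 521 bp for lost peaks.

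Wide peaks were kept more often than narrow ones at both times. With all C/EBPbeta peaks of both lists divided into width quartiles (up to 494, 563, 652 and 2061 bp), 54.1%, 65.1%, 74.7% and 87.4% of 2 hours peaks were kept, from narrow to wide. The same shares of day 0 peaks were 42.5%, 58.0%, 71.2% and 87.3%. In the widest quartile the times were alike to within their intervals (86.3 to 88.4 at 2 hours and 86.4 to 88.2 on day 0), whereas among the narrowest peaks fewer were kept from the day 0 side. Day 0 peaks ran wider (median 576 bp against 551 bp at 2 hours). The narrowest quartile held 21.9% of day 0 and 28.8% of 2 hours peaks, so it was not the same part of both lists.

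Open chromatin at 2 hours was listed at more gained than lost peaks, and open chromatin of day 0 at far fewer. The 2 hours DHS list held 12.7% of gained peaks (11.8 to 13.5), 26.2% of kept peaks (25.4 to 26.9) and 7.87% of lost peaks (7.25 to 8.53), beside 21.0% of all peaks of both C/EBPbeta lists. The day 0 DHS list held 2.16% of gained (1.81 to 2.56), 16.4% of kept (15.77 to 17.02) and 13.5% of lost peaks (12.7 to 14.3), beside 13.8% of all. Gained peaks were thus below both the share of kept peaks and the share over all peaks in either DHS list, with the wider gap on day 0. These DHS lists held 9055 peaks at 2 hours and 9989 on day 0, fewer than either C/EBPbeta list, so a peak outside them is not shown to be in closed chromatin.

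**Figure D1:**
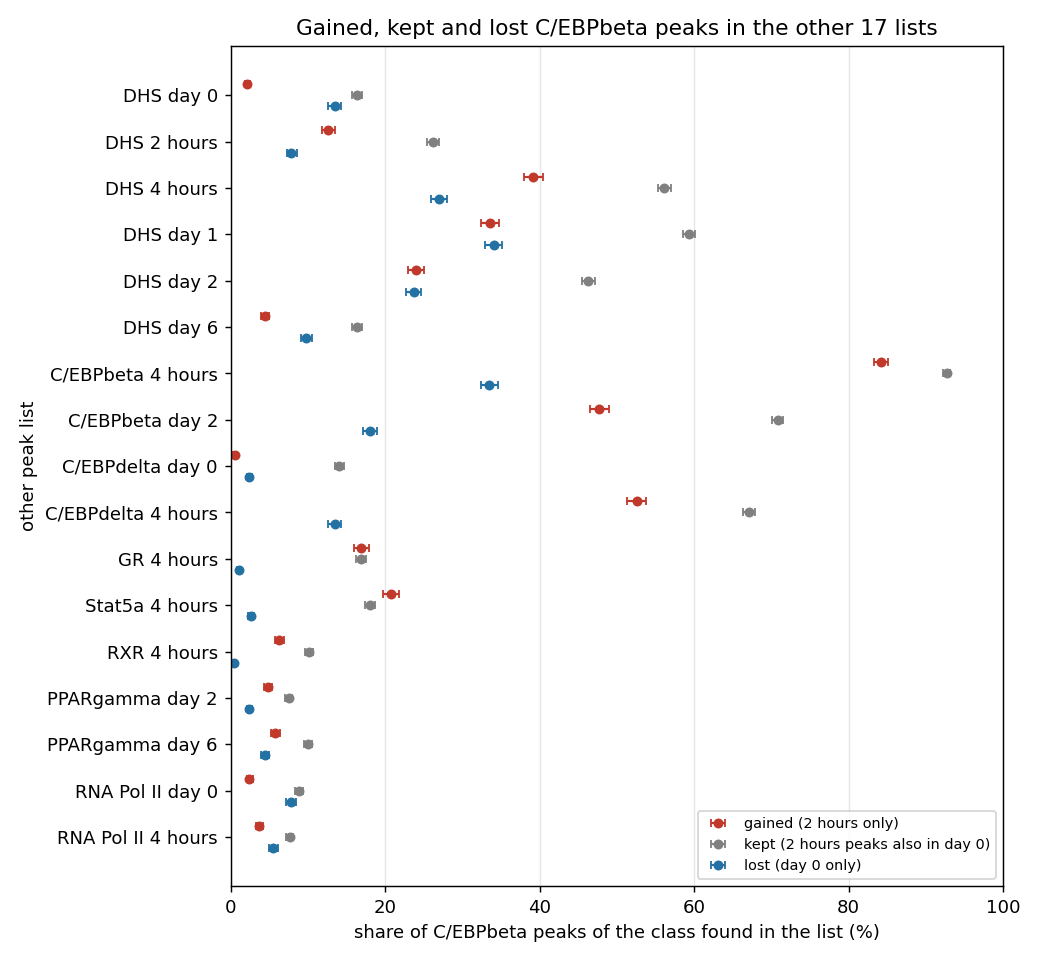
Share of gained (red), kept (grey) and lost (blue) C/EBPbeta peaks, in percent on the horizontal axis, that overlapped each of the other 17 peak lists, one per line; bars are exact 95% intervals over peaks. Gained peaks lie near kept peaks in the GR and Stat5a lists (16.9% and 20.7% of gained against 16.9% and 17.98% of kept), and lost peaks lie near kept peaks in the DHS list of day 0 (13.5% and 16.4%).

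Taken jointly, both DHS lists split the classes further. Of the gained peaks, 671 (11.0%, 10.2 to 11.8) were in the 2 hours DHS list and not in that of day 0, 101 (1.66%) were in both and 31 (0.508%) in the day 0 list alone. Of the kept peaks, these were 1851 (13.6%), 1708 (12.6%) and 521 (3.83%). Of the lost peaks, they were 98 (1.42%), 446 (6.45%) and 484 (7.004%). Gained peaks that overlapped early open chromatin thus lay mostly where it was listed at 2 hours only, kept peaks about equally where it was new and where it was there at both times, and lost peaks mostly where it was listed on day 0.

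A further 26.8% of gained, 27.2% of kept and 14.2% of lost peaks were outside both of these lists and in the DHS list of 4 hours. The remaining 60.0% of gained, 42.8% of kept and 71.0% of lost peaks were in none of these 3 lists. Among peaks that were in the day 0 DHS list, the 2 hours DHS list held 76.5% of 132 gained (68.4 to 83.4), 76.6% of 2229 kept (74.8 to 78.4) and 48.0% of 930 lost peaks (44.7 to 51.2). Among peaks outside the day 0 DHS list, it held 11.2% of 5968 gained, 16.3% of 11374 kept and 1.64% of 5980 lost peaks. On both sides lost peaks had the lowest share in the 2 hours DHS list. All C/EBPbeta classes are read against the same DHS libraries, so depth or quality of the 2 hours DHS library cannot be told apart from time in these shares.

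**Figure D2:**
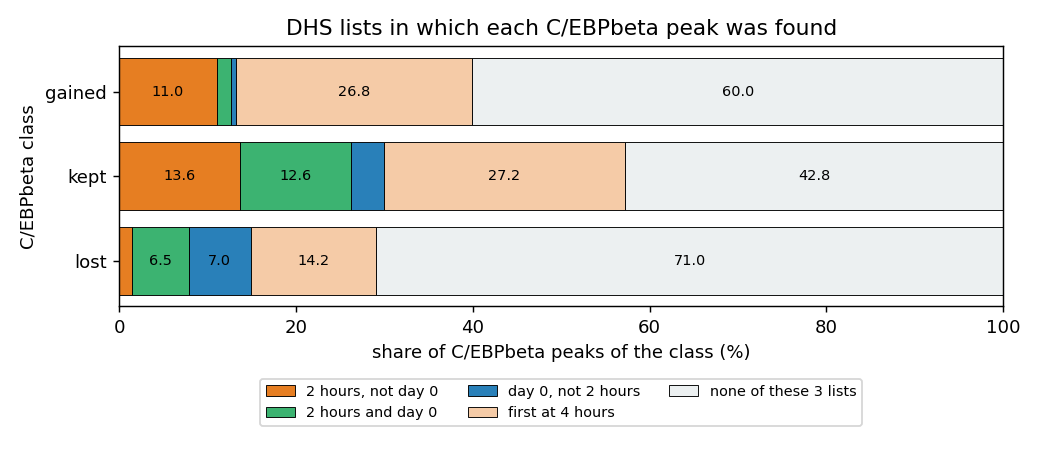
Each bar is a class of C/EBPbeta peaks (gained, kept, lost), divided by the DHS lists that held its peaks, with the share of the class in percent on the horizontal axis. The part in the 2 hours list and not in that of day 0 (orange) takes 11.0% of gained, 13.6% of kept and 1.42% of lost peaks, and the part in none of the 3 lists (light grey) 60.0%, 42.8% and 71.0%.

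The same relation was read from the DHS side. Of the 3693 DHS peaks listed at 2 hours and not on day 0, 67.6% (66.1 to 69.2) overlapped a C/EBPbeta peak of 2 hours and 52.4% (50.7 to 54.0) one of day 0. Kept C/EBPbeta peaks lay at 49.9% of them, gained ones at 17.8% and lost ones at 2.63%. Among all C/EBPbeta peaks of 2 hours, 31.0% were gained and 69.0% kept.

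Open regions present at both times numbered 5362 and overlapped C/EBPbeta in 33.8% at 2 hours and 40.4% on day 0. They held a gained peak in 2.07% and a lost peak in 8.37% of cases. Regions in the day 0 DHS list only (4629) overlapped C/EBPbeta in 11.5% at 2 hours and 21.4% on day 0, with a gained peak in 0.583% and a lost peak in 10.3%. C/EBPbeta of 2 hours was therefore listed at the highest share of regions that were new at 2 hours and at the lowest share of regions that were no longer listed. The C/EBPbeta list of day 0 had the same order, with 52.4%, 40.4% and 21.4% of new, lasting and no longer listed regions. The order was thus present before induction.

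Peak width moved with openness. From the narrowest to the widest quartile, the 2 hours DHS list held 7.52%, 8.13%, 18.2% and 40.1% of gained peaks, and 10.9%, 13.6%, 25.2% and 51.0% of kept peaks. For lost peaks the same shares were 6.59%, 7.07%, 8.29% and 13.8%. Gained and lost peaks were close in the narrow quartiles, where their intervals overlapped, and apart in the wide ones.

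In the day 0 DHS list gained peaks showed no order by width, with 2.38%, 2.01%, 1.89% and 2.26% from narrow to wide. Kept peaks had 11.7%, 11.7%, 16.8% and 24.0%, and lost peaks 9.85%, 10.9%, 15.9% and 28.5%. Lost peaks were below kept ones in each quartile but the widest, and the mean of the 4 quartiles was 16.1% for kept and 16.3% for lost peaks. Kept peaks were placed by their 2 hours width and lost peaks by their day 0 width, which ran wider, so these quartiles were not like for like. By day 0 width, all day 0 peaks had 7.76%, 8.73%, 14.5% and 28.1%. Lost peaks were thus above all day 0 peaks in the narrower quartiles and at about their level in the widest. All day 0 peaks are the lost and the kept ones together. With both classes placed by day 0 width, lost peaks were therefore above kept ones in the narrower quartiles, the reverse of the order given first.

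**Figure D3:**
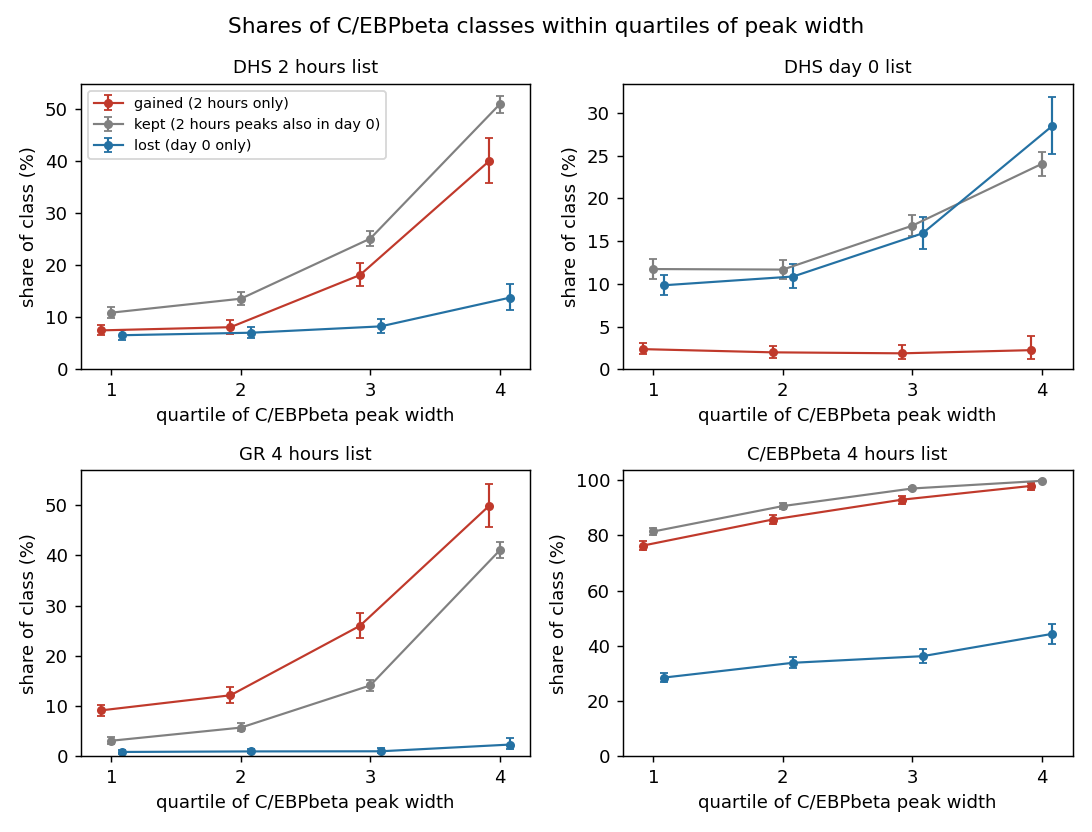
Share of gained (red), kept (grey) and lost (blue) C/EBPbeta peaks, in percent on the vertical axis, found in 4 other lists, by quartile of C/EBPbeta peak width on the horizontal axis (1 is narrowest); bars are exact 95% intervals over peaks. In the widest quartile the 2 hours DHS list holds 40.1% of gained, 51.0% of kept and 13.8% of lost peaks, while the day 0 DHS list holds 2.26%, 24.0% and 28.5%. Gained and kept peaks are placed by their 2 hours width and lost peaks by their day 0 width.

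Factors profiled at 4 hours were found at gained peaks and hardly at lost ones. The GR list held 16.9% of gained (16.0 to 17.9), 16.9% of kept (16.2 to 17.5) and 1.07% of lost peaks (0.842 to 1.34), beside 14.2% of all. The Stat5a list held 20.7% of gained (19.7 to 21.8), 17.98% of kept (17.3 to 18.6) and 2.66% of lost peaks (2.30 to 3.07), beside 15.8% of all. The RXR list held 6.31% of gained, 10.1% of kept and 0.420% of lost peaks, beside 7.90% of all. Gained peaks were at the level of kept peaks for GR, above it for Stat5a and below it for RXR, and lost peaks were far below in each.

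C/EBPdelta lay at most kept, many gained and few lost peaks at 4 hours, and on day 0 it was all but absent from gained ones. Its 4 hours list held 52.6% of gained (51.3 to 53.8), 67.1% of kept (66.3 to 67.9) and 13.5% of lost peaks (12.7 to 14.3), beside 55.7% of all. Its day 0 list, much shorter at 2581 peaks, held 32 gained peaks (0.525%, 0.359 to 0.740), 14.0% of kept and 2.42% of lost peaks, beside 10.0% of all. Lost C/EBPbeta peaks were thus rarely shared with C/EBPdelta even on day 0, when C/EBPbeta was listed there.

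The relation was also read from those lists, beside the sizes of the classes, with 6100 gained and 13603 kept peaks among those of 2 hours. Of the 2581 C/EBPdelta peaks on day 0, 74.1% overlapped a kept C/EBPbeta peak, 1.24% a gained one and 6.43% a lost one. Of the 4080 GR peaks, 55.8% overlapped kept, 25.05% gained and 1.81% lost C/EBPbeta peaks. Of the 2076 RXR peaks, 66.8% overlapped kept, 18.6% gained and 1.40% lost peaks, and of the 6977 Stat5a peaks, 35.1%, 18.1% and 2.65%. GR was the list with the highest share at gained peaks among the 17, before RXR with 18.6%. In total this does not set gained apart from kept peaks, as the GR list held 16.9% of both. Within quartiles of width the shares of both classes differed, as given below. The Stat5a list held 20.7% of gained and 17.98% of kept peaks.

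The share of peaks with GR differed with width. In the narrowest quartile it was listed at 9.13% of gained, 3.09% of kept and 0.853% of lost peaks. In the widest it was listed at 49.9% of gained (45.6 to 54.2), 41.0% of kept (39.4 to 42.6) and 2.33% of lost peaks. Gained peaks were above kept ones in each of the 4 quartiles, though the totals were alike. Gained peaks were the narrower class, as given above. In 7 of 9 other ways of counting, which are listed with the processing, the total was lower for gained than for kept peaks.

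Many peaks held several of the other 4 hours factors (C/EBPdelta, GR, Stat5a and RXR). None of these was at 40.3% of gained, 30.9% of kept and 84.5% of lost peaks. All 4 were at 184 gained (3.02%), 728 kept (5.35%) and 2 lost peaks (0.0289%). C/EBPdelta without the other 3 was the most frequent combination with a factor in each class, at 30.1% of gained, 42.4% of kept and 11.9% of lost peaks. GR with neither C/EBPdelta, Stat5a nor RXR was at 103 gained (1.69%, 1.38 to 2.04), 48 kept (0.353%, 0.260 to 0.468) and 26 lost peaks (0.376%). Gained peaks thus held GR without the other 3 factors at a higher share than either other class, from few peaks.

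Open chromatin at 2 hours was listed more often the more of these factors a peak held. From 0 to 4 factors, the 2 hours DHS list held 6.80%, 9.83%, 19.2%, 32.2% and 49.5% of gained peaks. For kept peaks these shares were 11.2%, 21.3%, 42.3%, 58.7% and 70.7%. In the day 0 DHS list no such order was seen at gained peaks (2.77%, 1.69%, 1.64%, 1.91% and 2.72%), while kept peaks ran through 13.0%, 16.1%, 19.1%, 22.7% and 23.2%. Gained peaks with all 4 factors were therefore about as rarely in the open chromatin list before induction as gained peaks with none. Median width was 483, 512, 545, 597 and 619.5 bp at gained peaks and 513.5, 575, 642.5, 702 and 757 bp at kept peaks from 0 to 4 factors, and its part in these shares was not tested.

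**Figure D4:**
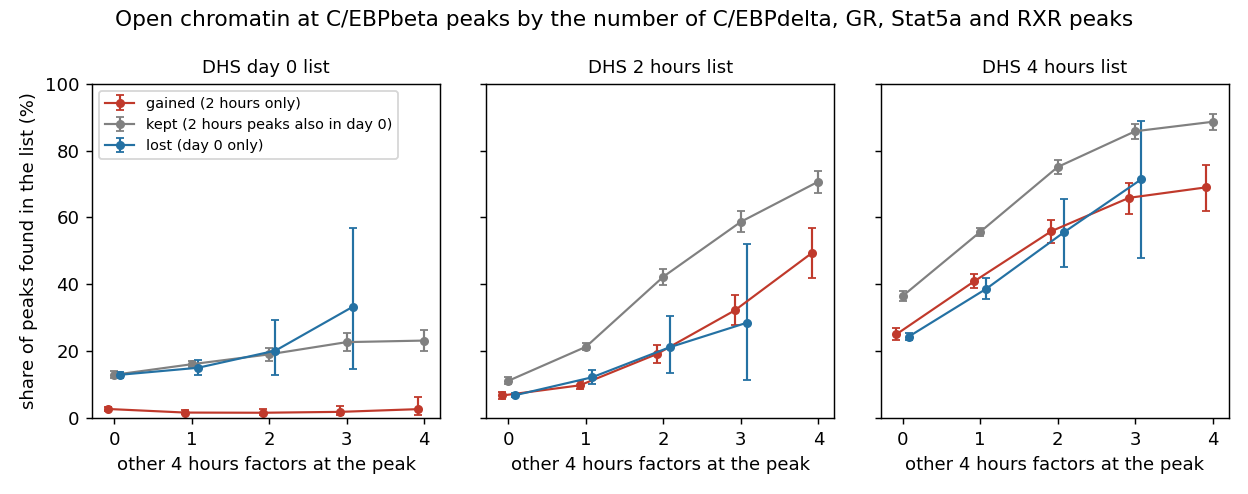
Share of gained (red), kept (grey) and lost (blue) C/EBPbeta peaks, in percent on the vertical axis, found in DHS lists (panels for day 0, 2 hours and 4 hours), by how many of C/EBPdelta, GR, Stat5a and RXR were listed at the peak at 4 hours; bars are exact 95% intervals, and lost peaks with 4 factors (2 peaks) are not drawn. Gained peaks stay between 1.64% and 2.77% in the day 0 panel and reach 49.5% at 2 hours and 69.0% at 4 hours with all 4 factors.

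GR, whose ligand dexamethasone is one of the inducers, was set against openness on its own. Of the 1031 gained peaks with GR, 34.5% (31.6 to 37.5) were in the 2 hours DHS list and 69.3% in that of 4 hours. Of the 5069 gained peaks without it, these shares were 8.21% (7.466 to 8.996) and 33.1%. In the day 0 DHS list the shares were alike, with 2.23% (1.42 to 3.33) of gained peaks with GR and 2.15% (1.77 to 2.59) of those without. Gained peaks with GR were wider (median 583 bp against 500 bp without), and the part of width in the difference was not tested. GR was profiled at 4 hours, so its presence at 2 hours is not shown.

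Kept peaks were in the day 0 DHS list more often than gained ones, both with GR and without it. Of the 2295 kept peaks with GR, 61.5% were in the 2 hours DHS list and 23.1% in that of day 0. Of kept peaks without GR, 19.0% and 15.0% were in these lists, and they were narrower (median 554 bp against 707 bp with GR). Only 74 lost peaks held GR, and 29.7% of them were in the 2 hours DHS list.

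Peaks where open chromatin was new at 2 hours were examined by class. Of the 671 such gained peaks, GR lay at 49.8% (45.9 to 53.6), Stat5a at 45.2% and C/EBPdelta of 4 hours at 67.5%. Of the 1851 such kept peaks, GR lay at 49.3% (47.0 to 51.6), Stat5a at 44.1% and C/EBPdelta at 89.8%. Of the 98 such lost peaks, GR lay at 4.08% (1.12 to 10.1), Stat5a at 12.2% and C/EBPdelta at 28.6%. Gained and kept peaks in newly listed open chromatin held GR and Stat5a at shares whose intervals overlapped, and the lost ones held less of both.

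These newly open gained peaks were also followed in time. C/EBPbeta was listed at 97.5% of them at 4 hours and at 39.5% (35.8 to 43.3) on day 2. At the newly open kept peaks it was listed at 99.3% at 4 hours and 81.6% (79.7 to 83.3) on day 2. The DHS lists of 4 hours, day 1, day 2 and day 6 held 93.4%, 80.9%, 47.7% and 10.3% of the gained and 95.2%, 92.1%, 72.1% and 18.3% of the kept ones. Both groups were nearly all open and bound at 4 hours, and by day 2 fewer of the gained than of the kept ones were listed.

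C/EBPbeta itself was listed at most gained sites at 4 hours and fewer on day 2, and at a minority of lost sites at both. At 4 hours it was listed at 84.2% of gained (83.3 to 85.1), 92.7% of kept (92.2 to 93.1) and 33.5% of lost peaks (32.4 to 34.6), beside 81.2% of all. On day 2 it was listed at 47.7% of gained (46.5 to 49.0), 70.8% of kept (70.0 to 71.6) and 17.99% of lost peaks (17.1 to 18.9), beside 58.2% of all. The order of kept, gained and lost was thus the same at both later times. The 4 hours list is the longest of the 4 C/EBPbeta lists (29957 peaks). With all 4 lists at 19703 peaks by width, it held 62.9% of gained and 16.6% of lost peaks.

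The gained sites divided almost evenly between those still bound on day 2 and those not. C/EBPbeta was listed at both later times at 2695 gained peaks (44.2%), at 4 hours and not on day 2 at 2442 (40.0%), on day 2 alone at 217 (3.56%) and at neither at 746 (12.2%). Of lost peaks, 734 (10.6%) were listed again at both, 1580 (22.9%) at 4 hours only, 509 (7.37%) on day 2 only and 4087 (59.1%) at neither. Kept peaks were listed at both in 68.8% and at neither in 5.29% of cases. Being lost at 2 hours was in most cases followed by absence from both later lists, and in 1 of 3 cases by a peak at 4 hours.

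**Figure D5:**
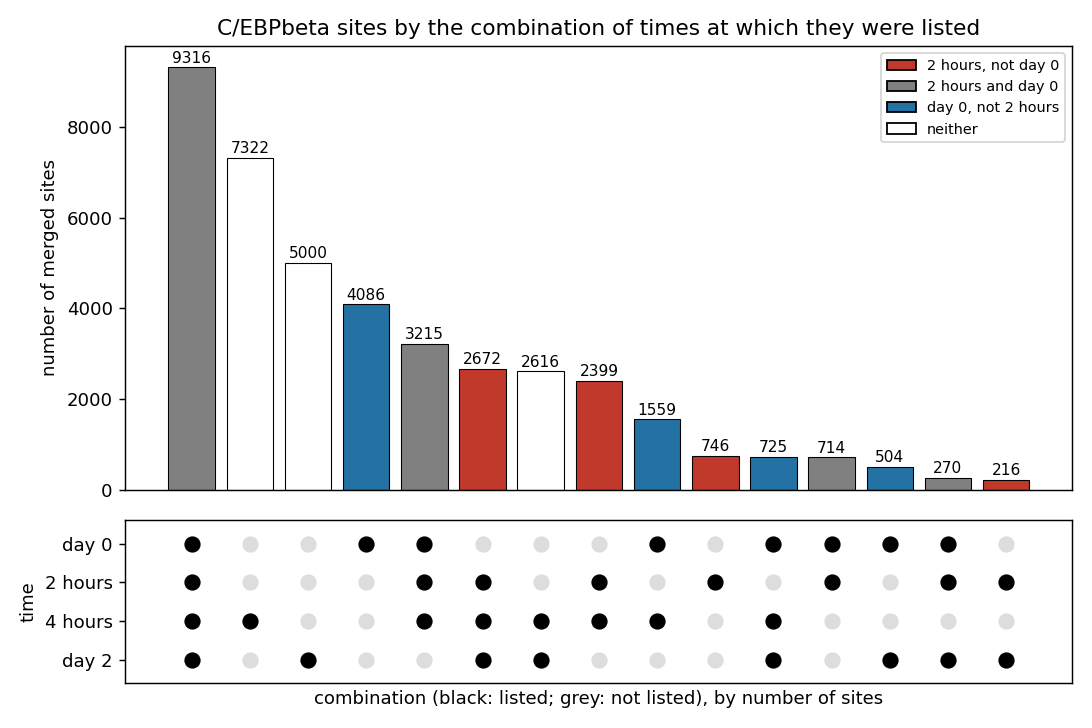
Number of C/EBPbeta sites in each combination of the 4 C/EBPbeta lists, after merging (vertical axis, number of sites; black dots mark the lists that hold the site). Sites in all 4 lists are the most frequent (9316); sites listed at 2 hours and not on day 0 (red) are mostly listed at 4 hours, with day 2 (2672) or without (2399), and sites of day 0 only number 4086.

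Merged over the 4 lists, C/EBPbeta had 41360 sites. Of these, 9316 were in all 4 lists and 4086 in the day 0 list only, but 746 in the 2 hours list only. Day 0 and 4 hours without 2 hours was the pattern of 1559 sites, and a further 725 had day 2 as well. At these 2 patterns the 2 hours list is the exception between lists of its neighbours in time, and a site under the threshold at 2 hours cannot be told apart there from a site left by the factor.

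GR and C/EBPdelta were at different shares of gained peaks by the later C/EBPbeta lists that held them. GR lay at 24.0% (22.4 to 25.6) of gained peaks listed at both later times, at 15.1% (13.7 to 16.5) of those listed at 4 hours only and at 1.74% (0.931 to 2.96) of those at neither. C/EBPdelta of 4 hours lay at 75.1%, 43.4% and 9.92% of the same groups. At the 217 gained peaks listed on day 2 only, GR lay at 1.84% and C/EBPdelta at 23.0%. Stat5a lay at 23.8% (22.2 to 25.4) of those at both times and 21.7% (20.1 to 23.4) of those at 4 hours only, with overlapping intervals, and at 11.0% (8.84 to 13.5) of gained peaks at neither time. Open chromatin of 2 hours ran differently, at 10.5% (9.37 to 11.7), 18.6% (17.1 to 20.2) and 4.29%. Gained peaks listed at 4 hours and no longer on day 2 thus had the highest share of early open chromatin, but lower shares with GR and C/EBPdelta than those that stayed. The median widths of peaks listed at both later times, at 4 hours only and at neither were 532, 504 and 467 bp.

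The fat cell regulator PPARgamma was found at few peaks of any class. Its day 2 list held 4.80% of gained, 7.51% of kept and 2.43% of lost peaks, beside 6.22% of all, and its day 6 list held 5.79%, 10.0% and 4.43%, beside 8.41% of all. Where C/EBPbeta was listed on day 2, PPARgamma of day 6 lay at 10.8% of gained (9.71 to 12.0), 13.5% of kept and 13.8% of lost peaks (11.9 to 15.8). Where it was not, PPARgamma lay at 1.19%, 1.59% and 2.38% of them. PPARgamma of day 2 lay at 9.44% of gained (8.41 to 10.6), 10.3% of kept and 8.77% of lost peaks (7.255 to 10.5) where C/EBPbeta was listed on day 2. Among peaks with C/EBPbeta on day 2, gained and lost ones thus had PPARgamma at shares whose intervals overlapped on both days, though only narrowly on day 6. Of the 5493 PPARgamma peaks of day 6, 6.44% overlapped gained, 24.4% kept and 5.53% lost C/EBPbeta peaks.

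As deposited, the DHS list of 4 hours separated gained from lost peaks, those of day 1 and day 2 hardly did, and that of day 6 had the opposite order. At 4 hours it held 39.2% of gained (38.0 to 40.4), 56.1% of kept and 27.0% of lost peaks (25.9 to 28.1), beside 48.6% of all. Gained and lost peaks had 33.5% and 34.1% on day 1, beside 51.1% of all, and 24.0% and 23.7% on day 2, beside 39.0% of all, while kept peaks had 59.3% and 46.3%. On day 6 the shares were 4.44% of gained (3.94 to 4.99), 16.4% of kept and 9.78% of lost peaks (9.09 to 10.5), beside 13.5% of all. The difference at 4 hours was nearly lost with all DHS lists at 9055 peaks and all C/EBPbeta lists at 19703 by width, where that list held 10.02% of gained and 9.05% of lost peaks. On day 1 and day 2 these shares were then 7.88% and 8.07% of gained against 10.5% and 10.2% of lost peaks. The DHS lists differ in length (9055 peaks at 2 hours to 35389 on day 1), so shares are read between classes and not between times.

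RNA polymerase II was listed at fewer gained than lost peaks. Its day 0 list held 2.44% of gained (2.07 to 2.86), 8.83% of kept and 7.84% of lost peaks (7.22 to 8.503), beside 7.72% of all. Its 4 hours list held 3.71% of gained, 7.66% of kept and 5.51% of lost peaks, beside 6.75% of all. Gained peaks were the class with least polymerase at both times.

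Isolated peaks were most frequent among lost ones. No other of the 17 lists held 491 gained (8.05%, 7.38 to 8.76), 386 kept (2.84%) and 2492 lost peaks (36.1%, 34.9 to 37.2). The median peak was in 3 other lists when gained, 5 when kept and 1 when lost. Of the 17 lists, 3 are of day 0 (DHS, C/EBPdelta and RNA polymerase II) and the others are of induced cells, and the part of this in the isolation of lost peaks was not tested.

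The step to 2 hours was set beside the later steps of the same factor. With all 4 C/EBPbeta lists at 19703 peaks by width, 67.9% (67.2 to 68.5) of 2 hours peaks had been listed on day 0. Of 4 hours peaks, 70.8% (70.1 to 71.4) had been listed at 2 hours, and of day 2 peaks 58.2% (57.5 to 58.9) at 4 hours. At this equal length, the first 2 hours of induction thus exchanged slightly more of the list than the next 2 hours, and less than the time up to day 2. As deposited, with lists of unequal length, these shares were 69.0%, 59.0% and 72.1%, in another order. Read from the earlier list as deposited, 66.2% of day 0 peaks were listed at 2 hours. Of 2 hours peaks, 90.1% were listed at 4 hours, and of 4 hours peaks 51.4% on day 2. In open chromatin, 59.2% (58.2 to 60.2) of the 9055 DHS peaks at 2 hours had been listed on day 0.

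Single regions, in mm9 coordinates counted from 1, show the classes. The widest gained peak lay on chromosome 16 at 35102176 to 35103591 (1416 bp). It was outside the day 0 DHS list, inside those of 2 hours, 4 hours and day 1, and held C/EBPdelta, GR, Stat5a and RXR at 4 hours and C/EBPbeta at 4 hours and day 2. The second widest (chromosome 7, 98719311 to 98720687) and the fourth (chromosome 12, 71159958 to 71161174) held the same factors and the same early DHS pattern. In the third, on chromosome 3 at 149229177 to 149230412, C/EBPbeta, C/EBPdelta and GR were listed with no DHS at any time. In the fifth, on chromosome 12 at 16770115 to 16771320, the other lists were DHS, C/EBPbeta and Stat5a of 4 hours.

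None of the 5 widest lost peaks held GR, Stat5a or RXR, beside 3.63% of all lost peaks with any of these. C/EBPbeta was listed again at 4 hours in 3 of the 5, beside 44.3% of lost peaks in the widest quartile. They lay on chromosome 12 (92265254 to 92266701), chromosome 7 (77560888 to 77562298) and chromosome 9 (61517576 to 61518943). These were thus missing at 2 hours and present on both sides of it. Another, on chromosome 14 (34611347 to 34612745), was in no other list. The last, on chromosome 10 (38178718 to 38180045), was the only one of the 5 in the day 0 DHS list, and it was also in the C/EBPdelta list of day 0.

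The widest overlap of both times lay on chromosome 10 at 38713706 to 38715284 (1579 bp) and was in 12 other lists, with DHS from day 0 to day 2 and all 4 factors of 4 hours. The next, on chromosome 4 at 29389430 to 29391014, had C/EBPbeta and C/EBPdelta on day 0 but no DHS until 2 hours. Those on chromosome 17 (87969902 to 87971387) and chromosome 10 (77920471 to 77921951) were in the DHS lists of day 0 and 2 hours without GR. That on chromosome 11 at 21268536 to 21270043 held RNA polymerase II at both times and was in no DHS list before day 2. Even the widest kept peaks thus differed in openness before induction.

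The gained peaks in the most other lists were in 14, 14 and 13 of the 17. They lay on chromosome 16 (50309533 to 50310347), chromosome 8 (129260377 to 129260903) and chromosome 13 (103363225 to 103364083), and all 3 held GR, Stat5a, RXR, C/EBPdelta of 4 hours and PPARgamma of day 6. The lost peaks in the most other lists were in 13, 12 and 12. These were on chromosome 5 (115939296 to 115939905) and at 2 places of chromosome 6 (124989314 to 124990007 and 51112336 to 51113021). Each of these was in all 6 DHS lists and held C/EBPdelta and RNA polymerase II on day 0. C/EBPbeta was listed at all 3 again at 4 hours. RXR was listed at the peak on chromosome 5, and GR and Stat5a at that on chromosome 6 from 51112336. Gained and lost peaks were chosen here for the number of lists that held them, so holding many factors follows from the choice.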

How the data were processed

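Peak lists of DHS-seq (6) and ChIP-seq (13) libraries from 3T3-L1 cells were used as deposited by the authors, 1 list per library. Per the file headers and columns, each list gives only chromosome, start and end, so its values are coordinates and no score, signal or count. Per the submitters' processing notes the build is mm9. The aligner, peak caller and threshold are not given in the sources used here, and read depth is unknown. The input sample was not analysed here.

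Overlaps of at least 1 bp, shares with exact (Clopper-Pearson) 95% intervals, distances and merged sites were computed with Python 3.11.15, NumPy 2.4.6 and SciPy 1.17.1, and plots drawn with Matplotlib 3.10.9. Gained and kept peaks were taken in 2 hours coordinates and lost ones in day 0 coordinates. The overlap step was tested on simulated data. With 1 library per group no test was run.

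Alternative counts required 50% or more of the shorter peak to overlap, allowed gaps up to 500 bp, set peaks to 200 bp, or used peaks at or above the median width of their list only, both C/EBPbeta lists and the DHS lists of day 0 and 2 hours at equal length by width, merged sites as the unit, 200 bp around the middle of each peak, and the mean of 4 width quartiles. All C/EBPbeta and all DHS lists at equal length was added after the data were seen. Named regions are the 5 widest gained, lost and shared peaks, the 3 gained and lost peaks in the most other lists, and 1 Mb windows with most gained or lost peaks. The peaks, lists and rules were chosen with earlier results of these data known. Genes and sequence motifs were left out because no mm9 annotation or sequence was used here.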

Additional observations from a re-analysis of the deposited data

How the results depend on the processing

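Read depth and peak scores are not known here, so how far they limit each value is open, and a site just under a threshold cannot be seen. Over 9 alternatives, 282 of 487 recomputed values stayed within their interval, or within 1.5 times for counts. Among peaks at or above the median width of their list, 3883 were gained and 4259 lost, and 5994 peaks of 2 hours and 5977 of day 0 were kept. The share of gained, kept and lost peaks in the 2 hours DHS list was 13.6%, 28.2% and 8.65% with a gap of up to 500 bp, 11.7%, 23.2% and 6.90% with peaks set to 200 bp, and 18.5%, 25.2% and 8.94% as the mean of width quartiles. The share of gained and lost peaks in the C/EBPbeta 4 hours list was 81.4% and 32.3% with peaks set to 200 bp, 75.4% and 31.8% for wider peaks, 88.2% and 35.7% as the mean of width quartiles, and 62.9% and 16.6% with all lists at equal length, an alternative chosen after seeing the data. Of 51 orders between classes, 46 held under all 9 alternatives. The exceptions were GR between gained and kept peaks, whose difference ran from -2.66 to 8.32 percentage points, gained against lost in the DHS lists of day 1 and day 2, and kept against lost in the DHS and RNA polymerase II lists of day 0. The cause was not tested. No paired analysis was possible because each group held 1 library and no test was run.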

Other observations

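Chromosome X had the highest share of lost peaks among 20 chromosomes. Of its 433 day 0 peaks, 184 were lost (42.5%, 95% interval 37.8 to 47.3), against 33.6% (32.9 to 34.2) of 20038 autosomal peaks, among which chromosome 19 was lowest with 30.4%. From the narrowest to the widest quartile, 42 of 70, 65 of 115, 51 of 117 and 26 of 131 X peaks were lost, and 57.5%, 41.7%, 28.5% and 12.5% of autosomal peaks. The X share was the higher in each quartile, but its interval overlapped that of the autosomes in the narrowest and in the widest one (13.4 to 27.7 on X and 11.7 to 13.4 on autosomes). Gained peaks did not share this, with 29.6% (24.9 to 34.6) of 355 X peaks of 2 hours and 31.0% of autosomal ones, within a range over chromosomes of 28.8% on chromosome 6 to 34.7% on chromosome 13. Of kept peaks, 12.0% (8.25 to 16.7) on X and 26.4% (25.7 to 27.2) on autosomes were in the 2 hours DHS list, and 10.0% and 16.5% in that of day 0. X held 1.80% of the C/EBPbeta peaks of 2 hours and 2.12% of those of day 0, and 1.33% and 1.96% of the DHS peaks of these times. Chromosomes were compared after their values were seen, and the difference was not tested.

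Counts per window varied for all 3 classes. Over 2089 windows of 1 Mb with a C/EBPbeta peak, the median was 2 gained, 5 kept and 3 lost peaks, and the highest counts were 19, 37 and 23. No comparison with an even spread was made. The window with most gained peaks, on chromosome 8 at 129000001 to 130000000, held 19 gained, 24 kept and 15 lost peaks. The next, on chromosome 6 at 144000001 to 145000000, held 16, 5 and 5, and the third, on chromosome 8 at 10000001 to 11000000, held 15, 6 and 1. In this order of windows, GR lay at 6 of 19, 3 of 16 and 7 of 15 gained peaks, beside 16.9% of all gained peaks. The DHS list of 2 hours held 5, 2 and 2 of them, beside 12.7% of all gained peaks. That of day 0 held 2, 0 and 0, beside 2.16%.

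The windows with most lost peaks were on chromosome 6 at 94000001 to 95000000 (4 gained, 24 kept and 23 lost), chromosome 6 at 100000001 to 101000000 (6, 14 and 22) and chromosome 12 at 9000001 to 10000000 (4, 14 and 20). In this order, 0 of 23, 1 of 22 and 0 of 20 lost peaks were in the DHS list of 2 hours, beside 7.87% of all lost peaks. The DHS list of day 0 held 1, 2 and 0 of them, beside 13.5% of all lost peaks. C/EBPbeta was listed at 4 hours at 9, 3 and 4 of them, beside 33.5%.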
